A study of Mus musculus with 18 samples.

Results

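The genes described here are 42 genes of the cell division cycle and DNA replication: proliferation markers, cyclins and their kinases, inhibitors of those kinases, the origin licensing and helicase machinery, enzymes of nucleotide supply, and mitotic kinases and checkpoint proteins. They were chosen by name, with earlier results of these data known. Every probe set (a group of probes for 1 transcript) that the platform annotation assigns to 1 of them alone was taken. That covered 41 of the 42 genes, out of 15964 genes named on the arrays, by 76 of 36701 probe sets, since Ccnb1 was not matched to a probe set here. Of these 76, 58 probe sets of 39 genes reached a signal of 60 on at least 2 of the 6 samples and were tested, out of 23285 tested in all. The 18 others, with signals of 0.5 to 93.2, include both probe sets of the inhibitor gene Cdkn1b and all 3 of the checkpoint kinase gene Bub1, which therefore have no test.

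The study profiled 3 dendritic cell populations from mouse spleen on Affymetrix expression arrays. The labels call them conventional (cDC, the submitters' control), plasmacytoid (PDC) and interferon-producing killer dendritic cells (IKDC). Each population has 2 separately prepared samples, and each sample was hybridised to the array types U74A, U74B and U74C, which makes 18 arrays. The labels give no strain, age, genotype, treatment or sorting scheme, and name no animal. Signals are on the linear scale on which the authors deposited them.

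A dividing cell licenses its replication origins by loading the MCM helicase in G1, copies its DNA in S phase and separates the copies in mitosis. Cyclins bind cyclin-dependent kinases (CDKs) to drive each step, CDK inhibitors restrain them, and E2F factors, held in check by pocket proteins, switch on many replication genes. Mature dendritic cells of the spleen are known to divide little compared with their precursors in bone marrow, although some cDC divide in the spleen, and NK cells divide when they mature or respond to cytokines.

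Each population carried its own markers. Over the whole list of 8 NK cell markers, all of which have a probe set, the summed signal was 47328 and 52734 in IKDC against 3174 to 5495 in the other 4 samples. Over 7 cDC markers it was 49333 and 42191 in cDC, 24531 and 23520 in PDC and 6117 and 4631 in IKDC, and over 6 PDC markers 40695 and 47840 in PDC against 7058 to 8546 elsewhere. Transcripts of other spleen cells were also present. For 12 of 15 erythroid markers the summed signal was 17286 and 20268 in IKDC, 2588 and 3484 in cDC and 25517 and 12119 in PDC. Most of that sum in IKDC and PDC is Hba-a1, with 12060 and 13456 in IKDC, 516 and 1348 in cDC and 21121 and 8068 in PDC. The means of Alas2, Klf1, Car1, Car2, Gata1, Rhd and Ermap were highest in IKDC. Those of Hba-a1, Tfrc, Slc4a1 and Add2 were highest in PDC and that of Epor in cDC. For 11 of 12 B and plasma cell markers the summed signal was 11770 and 7264 in IKDC, 2047 and 2114 in cDC and 14783 and 10253 in PDC. Much of that sum is Igha and Ighm. The means of Cd79a, Ms4a1, Pax5, Igha, Jchain and Blk were highest in IKDC, and those of Cd79b, Ighm and Sdc1 in PDC. The mean of Sdc1 was lowest in IKDC and those of Ms4a1 and Pax5 in PDC, while Cr2 and Prdm1 stayed under 60 in every sample. For 7 haematopoietic progenitor markers the summed signal was 2365 and 2251 in IKDC, 1489 and 1410 in cDC and 1127 and 1615 in PDC. Of these 7, Cd34 and Mpo stayed under 60 in every sample. Myb had 659 and 503 in IKDC, 33.5 and 62.7 in cDC and 120 and 346 in PDC. Kit had 419 and 481 in IKDC, 322 and 447 in cDC and 59.9 and 66.4 in PDC. The mean of Sox4 was also highest in IKDC, while those of Gata2 and Meis1 were highest in cDC. The 3' to 5' ratio of Gapdh, a measure of RNA integrity after amplification, was 3.34 and 3.59 in IKDC, 4.74 and 4.13 in cDC and 6.0 and 3.19 in PDC on U74A. The part of these differences in the results that follow was not tested.

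Cell cycle transcripts were most often brightest in IKDC and dimmest in PDC, while cyclin D1 was brightest in cDC. Taking for each of the 39 tested genes the probe set with the highest mean signal, the population mean was highest in IKDC for 25 genes (64.1%, against 35.5% of all 12193 tested genes), in cDC for 9 and in PDC for 5. The population mean was lowest in PDC for 24 genes (61.5%, against 29.4% of all genes). Both IKDC samples lay above the 4 other samples for 16 of the 39 genes, where 14.2% of all tested genes do so. These 16 are Mki67, Top2a, Stmn1, Cdk1, Ccnd2, Rbl1, Cdc6, Mcm3, Mcm4, Mcm6, Mcm7, Pcna, Rrm1, Bub1b, Mad2l1 and Cdc20. Of them, Top2a and Ccnd2 reached the signal minimum in IKDC alone, so the filter fixed their place among the 16. The same holds for their place among the 25 genes highest in IKDC and in the pairs with IKDC below. Both PDC samples lay below the 4 others for 11 genes, against 8.84% of all genes, and the 11 are Stmn1, Ccnb2, Ccnd3, Cdkn1a, Rbl1, Cdc6, Mcm2, Mcm6, Rrm2, Aurka and Cdc20. The other orders were rarer. Both cDC samples lay above the rest for 3 genes, Ccnd1, Cdkn1a and Aurkb (12.5% of all genes), and below the rest for Cdk6 (11.9%), both IKDC samples lay below the rest for Ccnd1 (12.3%), and both PDC samples above the rest for none (9.35%). In pairs, both IKDC samples were above both PDC samples for 24 genes and below for 2 (23.9% and 22.3% of all genes). They were above both cDC samples for 17 and below for 6 (27.4% and 26.9%), and both PDC samples were above both cDC samples for 1 and below for 13 (22% and 21.5%). Fewer dividing cells and less of each RNA per cell cannot be told apart in such samples.

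Few of these differences passed the test of each probe set. Between IKDC and PDC, 7 of the 58 member probe sets passed limma at a Benjamini-Hochberg adjusted p of 0.05, where 4.45% of all 23285 probe sets did so. Of the 7, 6 were higher in IKDC (Stmn1, Mki67, Top2a, Mcm5, Mcm6 and Mcm7) and 1 was lower (Ccnd1), against 2.06% higher and 2.39% lower over all probe sets. Of the 6, Top2a was tested through its IKDC signals alone, so its direction was fixed by the filter. Between IKDC and cDC 1 member probe set passed, lower in IKDC (Ccnd1), where 5.6% of all probe sets passed, 2.68% higher and 2.92% lower. Between PDC and cDC it was again Ccnd1 alone, lower in PDC, where 3.65% of all passed, 1.73% higher and 1.92% lower. Of the 7 calls between IKDC and PDC, only that of Stmn1 held whichever sample was left out. PDC replicate 1, the sample with the Gapdh ratio of 6.0, was among those whose removal ended calls. The number of all probe sets that passed also changed when a sample was left out. With only IKDC and cDC in the fit, 8 member probe sets passed instead of 1. Over all 23285 probe sets, 1668 then passed instead of 1305. At an unadjusted p of 0.05, 22 member probe sets were higher and 1 was lower in IKDC than in PDC (7.57% and 6.89% of all probe sets). For IKDC against cDC the unadjusted counts were 14 higher and 4 lower (9.63% and 9.31%), and for PDC against cDC 1 higher and 10 lower (7.41% and 7.5%). Top2a and Ccnd2, both tested through IKDC alone, are among the 22 and among the 14. The median log2 difference over the 58 was 0.47 for IKDC minus PDC, 0.29 for IKDC minus cDC and -0.23 for PDC minus cDC, beside -0.02, -0.01 and -0.01 over all probe sets tested. The 3 comparisons share samples and are not independent of each other. Differences are on the scale log2(signal + 16), which understates the change of dim genes. Each p-value sets a difference against the spread between the 2 preparations of a population, averaged across populations. limma draws that spread towards a trend over all tested probe sets of the array type. The total degrees of freedom had a median of 10.5, of which 3 are residual, so much of the spread is borrowed from other probe sets. It is a spread between preparations in either case and may be technical.

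**Figure D1:**
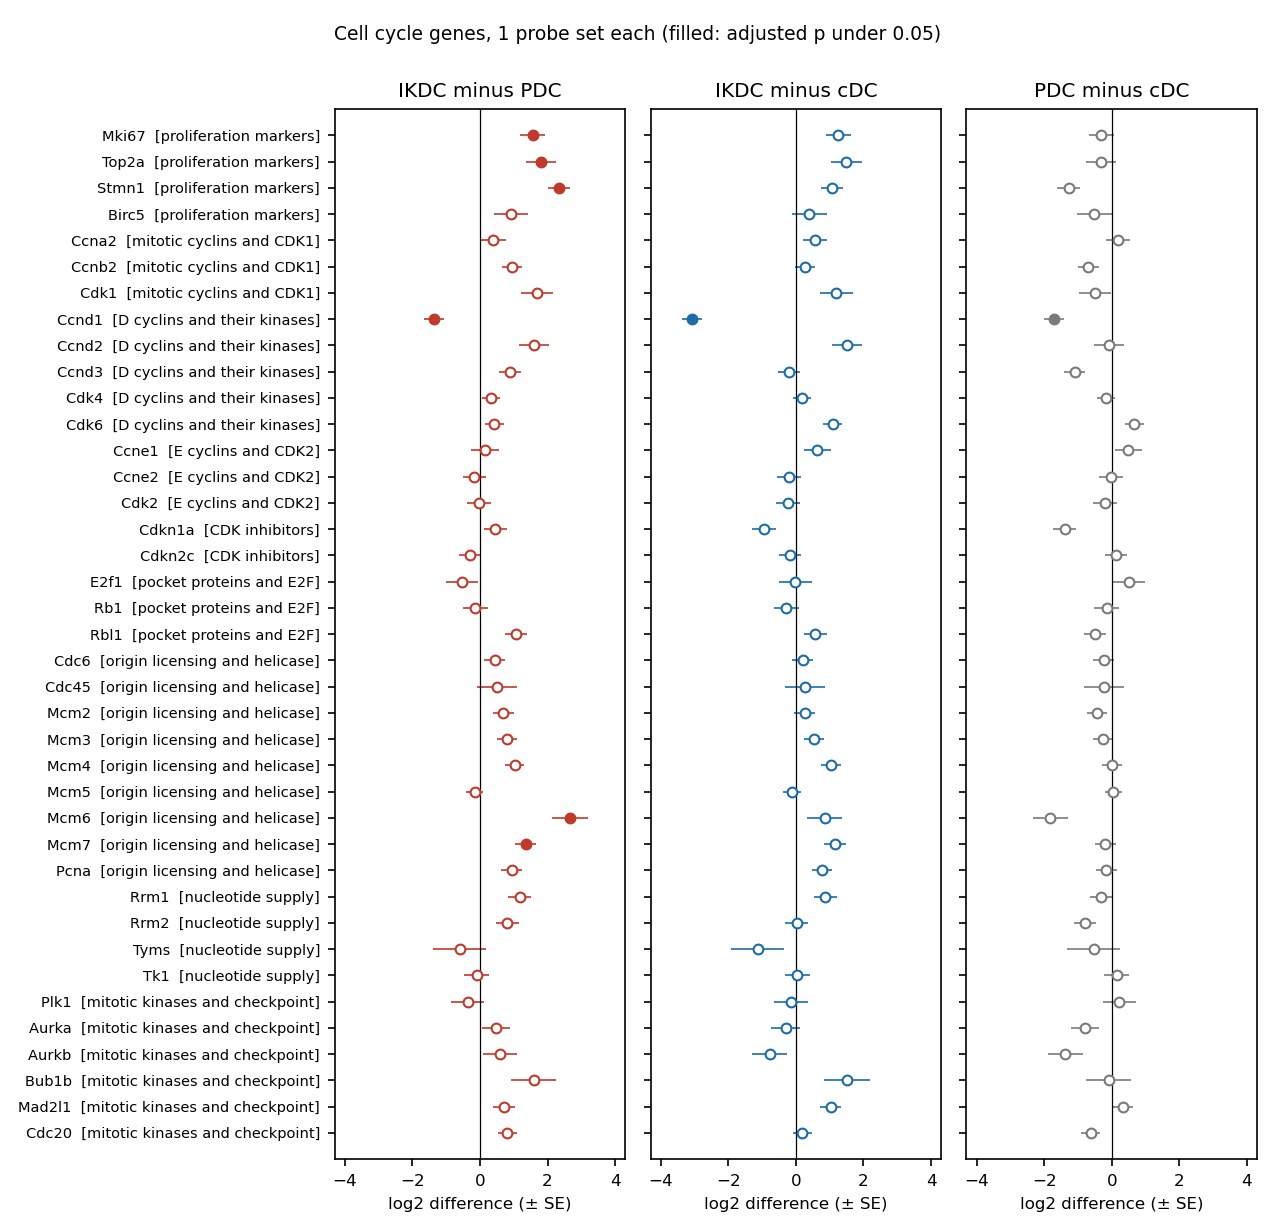
Log2 difference (horizontal axis, estimate ± SE) between populations, with 2 samples each, for the 39 tested genes, each by its probe set with the highest mean signal and grouped by role; filled points passed limma at an adjusted p of 0.05. In the left panel (IKDC minus PDC) 29 of 39 points lie right of 0, in the middle panel (IKDC minus cDC) 26, and in the right panel (PDC minus cDC) 10, while Ccnd1 is on the left of 0 in all of them.

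The proliferation markers were the group with the largest median difference between IKDC and PDC, at 1.68 log2 units. Of the 4 tested genes 3 rose, where 2.71% of all genes were higher in IKDC, and 1 of the 3, Top2a, was tested through its IKDC signals alone. Stmn1 encodes stathmin, which destabilises microtubules and is abundant in dividing cells. Its probe set 97909_at on U74A had signals of 1729 and 1800 in IKDC, 582 and 1189 in cDC and 309 and 364 in PDC. The populations did not overlap, and the cDC samples were far apart. IKDC exceeded PDC by 2.34 ± 0.33 log2 units (limma adjusted p = 0.00164), and this call held under all 16 alternative settings, with a highest adjusted p of 0.0163. Against cDC, Stmn1 differed by 1.07 log2 units in IKDC (limma adjusted p = 0.0987) and by -1.27 in PDC (limma adjusted p = 0.0663). Under the alternatives the first of these ranged from 0.56 to 1.58 and the second from -1.78 to -0.77 log2 units. Each passed under only some of them. The further probe set of Stmn1 stayed under 60 in every sample.

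Mki67 encodes Ki-67, the nuclear antigen used to count cycling cells. Its brighter probe set, 99457_at, had signals of 311 and 529 in IKDC, 126 and 206 in cDC and 98.9 and 162 in PDC. Both IKDC samples stood above all others, and cDC and PDC overlapped. IKDC exceeded PDC by 1.56 ± 0.37 log2 units (limma adjusted p = 0.0369), and differed from cDC by 1.25 (limma adjusted p = 0.0831). The PDC call ended without IKDC replicate 1 (limma adjusted p = 0.0518), IKDC replicate 2 (0.352) or PDC replicate 1 (0.185). The further probe set, 161931_r_at, ran the other way, with 65.7 and 93.4 in IKDC, 167 and 159.5 in cDC and 164.5 and 77.7 in PDC. Its differences of -0.92 (IKDC minus cDC) and -0.46 (IKDC minus PDC) did not pass, so the pattern of Mki67 rests on 1 of its 2 probe sets.

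Top2a encodes topoisomerase II alpha, which untangles DNA in S phase and mitosis. Its signals were 115 and 146 in IKDC, 28.9 and 43.8 in cDC and 14.6 and 40.7 in PDC, so that it reached the signal minimum in IKDC alone and was tested through that population. Against the minimum of 60, IKDC was at least 2.16-fold higher than PDC, with limma adjusted p = 0.0481. It was lost without PDC replicate 1 (limma adjusted p = 0.147), cDC replicate 1 (0.0675) or cDC replicate 2 (0.0798), and without either IKDC sample Top2a was no longer tested. Birc5, which encodes survivin, an anti-apoptotic and chromosomal passenger protein, had signals of 75.2 and 142 in IKDC, 139 and 37.2 in cDC and 55.1 and 40.6 in PDC. The cDC samples of Birc5 lay far apart, and no comparison passed.

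**Figure D2:**
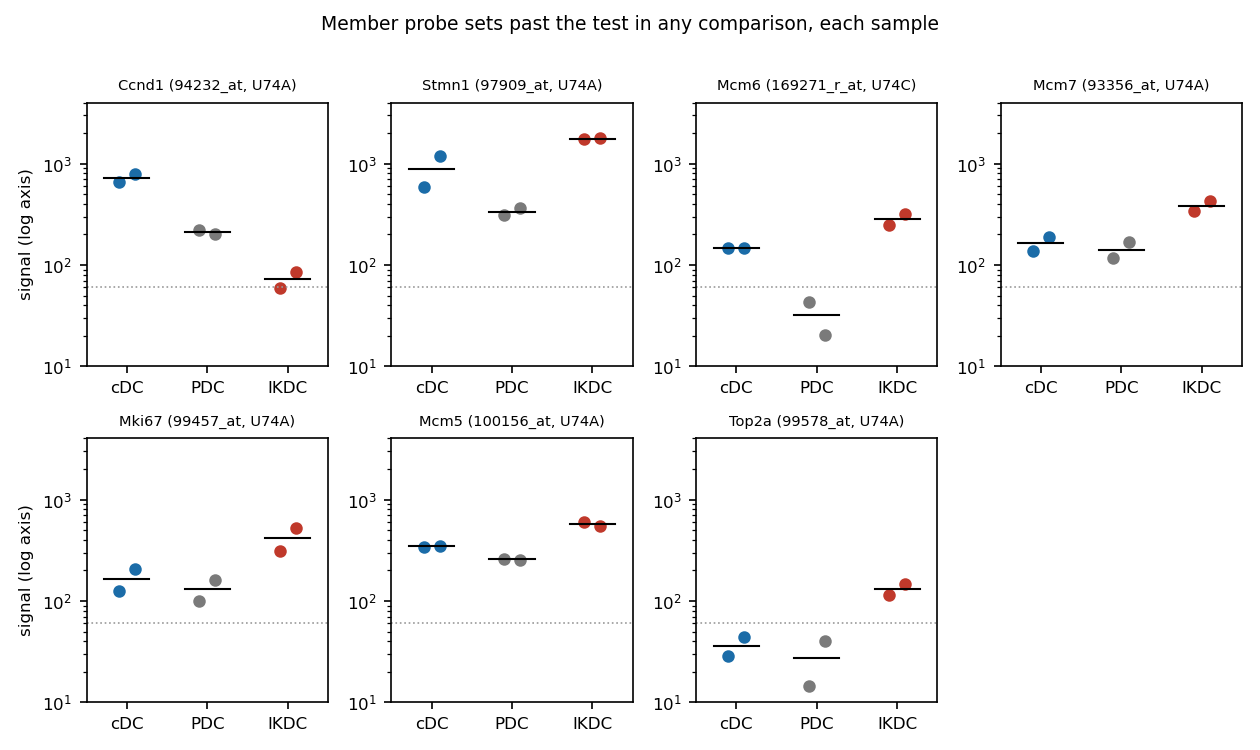
Signal of each sample (points, log axis; bars are the means of 2 samples) in cDC, PDC and IKDC for the 7 member probe sets that passed limma in any comparison; the dotted line is the signal minimum of 60. Ccnd1 descends from cDC to PDC to IKDC, whereas in the 6 other panels both IKDC points lie highest.

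Among the mitotic cyclins and their kinase none passed. Ccna2 encodes cyclin A2 of S phase and mitosis, with signals of 274 and 402 in IKDC, 164 and 287 in cDC and 306 and 199.5 in PDC, and all 3 populations overlapped. Ccnb2, encoding the mitotic cyclin B2, had 619 and 965 in IKDC, 576 and 708 in cDC and 437 and 349 in PDC. The PDC samples of Ccnb2 were the lowest, and IKDC minus PDC was 0.96 ± 0.31 log2 units (limma adjusted p = 0.127). Cdk1, encoding the kinase that starts mitosis, had 169 and 204 in IKDC, 46.7 and 107 in cDC and 23.6 and 82.6 in PDC. Its IKDC samples lay above all others, by 1.69 ± 0.48 log2 units against PDC (limma adjusted p = 0.0831). Under the alternatives that difference ranged from 1.03 to 2.35 log2 units, and it passed under only some of them.

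The D cyclins, which couple growth signals to entry into the cycle through CDK4 and CDK6, differed from each other in pattern. Ccnd1, encoding cyclin D1, was the only member that passed in all 3 comparisons. Its probe set 94232_at had signals of 665 and 784 in cDC, 220 and 201 in PDC and 59.4 and 85 in IKDC. The populations stood apart, with cDC highest and IKDC lowest. IKDC minus cDC was -3.08 ± 0.30 log2 units (limma adjusted p = 0.000117), and this call held under all 16 alternatives, with a highest adjusted p of 0.00259. PDC minus cDC was -1.71 log2 units (limma adjusted p = 0.00764), and this was lost without cDC replicate 1 (0.0508) or cDC replicate 2 (0.0822). IKDC minus PDC was -1.37 log2 units (limma adjusted p = 0.0216), and that call ended without IKDC replicate 1 (0.233), IKDC replicate 2 (0.0721) or PDC replicate 1 (0.0694). The 2 further probe sets of Ccnd1 were dim and did not pass. They had signals of 48.1 and 84 in IKDC, 148 and 98.4 in cDC and 124 and 21.6 in PDC (94231_at), and of 59.1 and 23.7 in IKDC, 82.3 and 127 in cDC and 26.8 and 35.6 in PDC (167827_at). In both of them the cDC mean was the highest. Beside this stands the summed signal of 8 of 9 macrophage and monocyte markers, at 4477 and 4427 in cDC, 1226 and 843 in PDC and 480 and 427 in IKDC, in the same order as Ccnd1. The summed signal of the 7 cDC markers had that order too, and C1qb of the macrophage list overlapped between cDC and PDC. The part of either list in the Ccnd1 result was not tested.

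Ccnd2, encoding cyclin D2, had signals of 126 and 102 in IKDC, 31.2 and 27.0 in cDC and 38.6 and 17.4 in PDC, and like Top2a it was tested through IKDC alone. IKDC minus cDC was 1.52 ± 0.45 log2 units (limma adjusted p = 0.0791) and IKDC minus PDC 1.60 (limma adjusted p = 0.0774). Across the alternatives these differences ranged from 0.93 to 1.93 against cDC and from 0.96 to 2.08 against PDC. Each passed under only some of them. Ccnd3, encoding cyclin D3, had 649 and 479 in IKDC, 791 and 526.5 in cDC and 240 and 357 in PDC on its brightest probe set. PDC was lowest there, by -1.10 ± 0.32 log2 units against cDC (limma adjusted p = 0.103), while the other 2 probe sets of Ccnd3 differed by 0.99 and 0.03 between PDC and cDC.

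Cdk4, encoding 1 of the kinases that D cyclins activate, varied little on its brighter probe set, with 891 and 998 in IKDC, 731 and 955 in cDC and 771 and 719 in PDC. Its other probe set, 101017_at, had 161 and 166 in IKDC, 79.6 and 130 in cDC and 57.5 and 120 in PDC. Both IKDC samples were highest there, by 0.85 ± 0.38 log2 units against PDC (limma adjusted p = 0.344). Cdk6, encoding the other kinase, had signals of 557 and 839 in IKDC, 311 and 313 in cDC and 458 and 562 in PDC on probe set 113777_at. The cDC samples of Cdk6 lay below all others, as in no other of the 39 genes by its brightest probe set. IKDC minus cDC was 1.09 ± 0.28 log2 units (limma adjusted p = 0.0513). It ranged from 0.81 to 1.38 under the alternatives and passed under only some of them. The other tested Cdk6 probe set, 111594_at, had 86.4 and 101.5 in IKDC, 20.9 and 106 in cDC and 44.3 and 29.0 in PDC, where cDC spanned the whole range, and it did not pass.

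**Figure D3:**
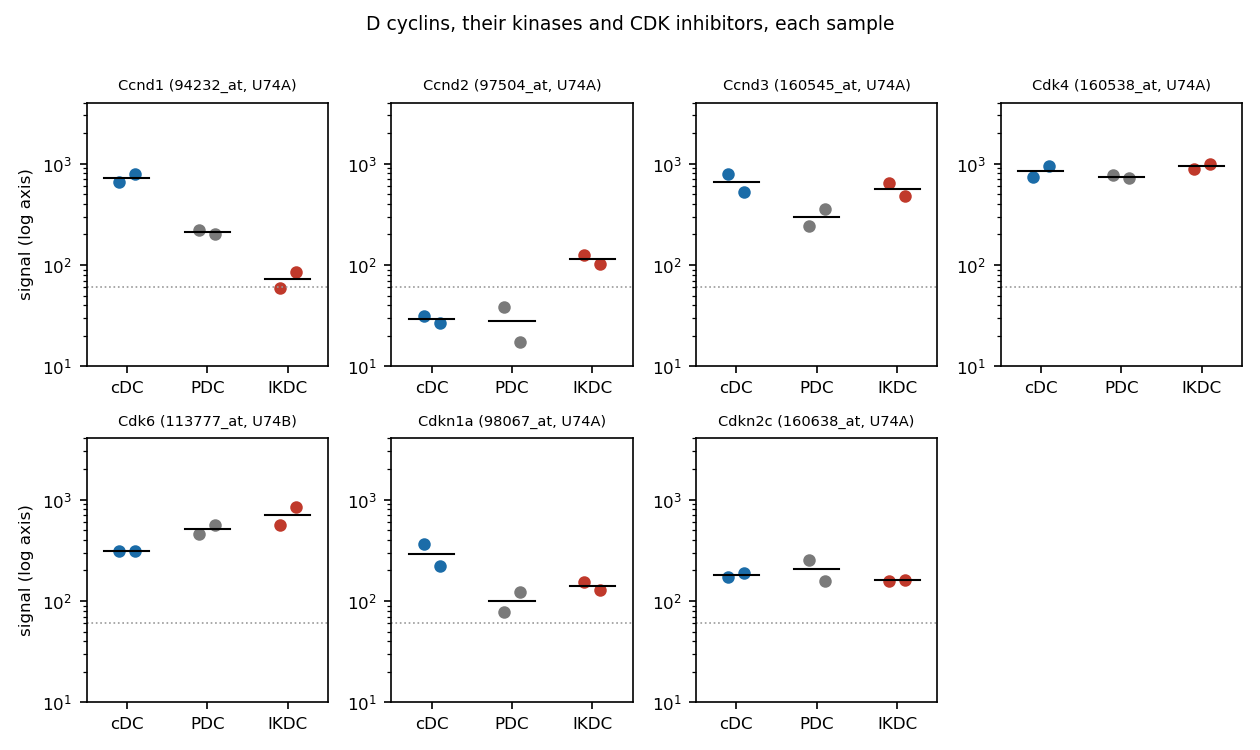
Signal of each sample (points, log axis; bars are the means of 2 samples) in cDC, PDC and IKDC for the D cyclins, their kinases and the 2 tested CDK inhibitors; the dotted line is the signal minimum of 60. Each gene is shown by its brightest tested probe set. Ccnd1 and Cdkn1a are brightest in cDC and Ccnd2 in IKDC, where its 2 samples alone exceed the minimum. Cdk4 and Cdkn2c differ little on the probe sets shown.

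Among the CDK inhibitors, Cdkn1a encodes p21, which p53 induces to halt the cycle. Probe set 98067_at had signals of 154 and 129 in IKDC, 363 and 223 in cDC and 78.7 and 122 in PDC, and 94881_at had 118 and 38.2 in IKDC, 245 and 245 in cDC and 97.7 and 49.4 in PDC. On both probe sets the cDC samples were above the 4 others. PDC minus cDC was -1.39 ± 0.34 log2 units on the first, just short of the threshold (limma adjusted p = 0.0500451). On 94881_at PDC minus cDC was -1.60 (limma adjusted p = 0.088) and IKDC minus cDC -1.61 (limma adjusted p = 0.0631). In that order, these differences ranged under the alternatives from -1.73 to -1.06, from -1.995 to -1.19 and from -2.27 to -0.96. Each passed under only some of them. Cdkn2c, encoding the CDK4 and CDK6 inhibitor p18, had 158 and 161 in IKDC, 173 and 190.5 in cDC and 253 and 157 in PDC, with no difference past the test. Cdkn1b, encoding p27, stayed at or under 63.3 on both probe sets.

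The E cyclins and their kinase, which act at the start of S phase, showed no order of populations. Ccne1 (3 tested probe sets), Ccne2 and Cdk2 had differences of -0.23 to 0.64 log2 units on every tested probe set in every comparison, none with an unadjusted p under 0.05. Rbl1, encoding the pocket protein p107, had signals of 200.2 and 301 in IKDC, 138 and 184 in cDC and 92.9 and 126.5 in PDC. Its populations did not overlap, and IKDC minus PDC was 1.07 ± 0.33 log2 units (limma adjusted p = 0.117). Rb1, encoding the retinoblastoma protein, lay between 60.2 and 89.4 in all 6 samples, and E2f1, encoding the founding E2F factor, between 24.5 and 82.9, with no comparison of either past the test.

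The origin licensing and helicase genes were the second group with members that rose in IKDC relative to PDC. The MCM2 to MCM7 proteins form the ring that unwinds DNA at the replication fork. Of the 9 tested genes of this group, each by its brightest probe set, 2 passed between IKDC and PDC. Both were higher in IKDC, where 2.71% of all genes were. For 7 of the 9, both IKDC samples lay above both PDC samples, as in 23.9% of all genes. Mcm7 had signals of 342 and 429 in IKDC, 138 and 189 in cDC and 116 and 168 in PDC. Both IKDC samples stood clear of the rest. IKDC minus PDC was 1.36 ± 0.32 log2 units (limma adjusted p = 0.0328), which was lost without IKDC replicate 1 (0.125), IKDC replicate 2 (0.295) or PDC replicate 1 (0.136). IKDC minus cDC was 1.16 (limma adjusted p = 0.057). It lay between 0.96 and 1.37 under the alternatives and passed under only some of them.

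Mcm6 was measured by probe set 169271_r_at on U74C, with signals of 249 and 315 in IKDC, 147 and 148.5 in cDC and 43.6 and 20.5 in PDC. The populations did not overlap, and IKDC was higher than PDC (limma adjusted p = 0.015). Against the signal minimum of 60 the difference was at least 4.67-fold. Both PDC signals lie under the 148.7 that unspiked bacterial controls reached on U74C, however, and against that level the bound is at least 1.89-fold. The call ended without IKDC replicate 1 (limma adjusted p = 0.0974), IKDC replicate 2 (0.165) or PDC replicate 2 (0.0652). The cDC signals also lie under that control level, and the other tested Mcm6 probe set, 169109_at, differed by -0.30 ± 0.59 log2 units between IKDC and PDC.

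Mcm5 passed on 1 of its probe sets. On 100156_at (U74A) its signals were 607 and 543 in IKDC, 341 and 351 in cDC and 259 and 254 in PDC. The populations stood apart with little spread, and IKDC exceeded PDC by 1.11 ± 0.27 log2 units (limma adjusted p = 0.0372). This call was lost without any 1 of the 6 samples, with limma adjusted p of 0.308 and 0.211 without IKDC replicates 1 and 2, 0.0814 and 0.0793 without PDC replicates 1 and 2, and 0.0582 and 0.0577 without cDC replicates 1 and 2. The brightest Mcm5 probe set, 167677_r_at (U74C), had 2138 and 1602 in IKDC, 2089 and 1920.4 in cDC and 2279 and 1867 in PDC, with no difference between populations past the test (-0.16 ± 0.25 log2 units for IKDC minus PDC). The _r suffix in its name marks probes that the manufacturer chose under relaxed design rules, as it does for the Mcm6 probe set that passed.

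The other genes of this group did not pass. Mcm4 had signals of 350.1 and 349 in IKDC, 177 and 148 in cDC and 172 and 155 in PDC. Its IKDC samples exceeded all others, by 1.04 ± 0.28 log2 units against cDC (limma adjusted p = 0.0594) and 1.03 against PDC (limma adjusted p = 0.0748). The alternatives gave 0.87 to 1.22 against cDC and 0.86 to 1.16 against PDC, and each difference passed under only some of them. Mcm3 had 484 and 503.5 in IKDC, 275 and 403.5 in cDC and 297 and 257 in PDC. Its second probe set, 100062_at, had 205 and 232 in IKDC, 136 and 153.5 in cDC and 90.6 and 92.1 in PDC, and the populations did not overlap (1.13 ± 0.30 log2 units for IKDC minus PDC, limma adjusted p = 0.0617). Mcm2 had 285 and 363 in IKDC, 287 and 247 in cDC and 228 and 162.5 in PDC, where IKDC and cDC overlapped. Pcna, encoding the sliding clamp of DNA polymerases, had 1355 and 1795 in IKDC, 802 and 1017 in cDC and 651 and 1000.0 in PDC. Both IKDC samples of Pcna were highest, by 0.94 ± 0.30 log2 units against PDC (limma adjusted p = 0.136). Cdc6, which loads the helicase, ranged from 97 to 149 with its samples ordered IKDC, cDC, PDC, and the differences of Cdc45, a helicase subunit, lay between -0.23 and 0.91 log2 units on its 2 probe sets.

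RefSeq promoters (GRCm38.p6) are shown for members that rose in IKDC relative to PDC, to lay the letters of elements known from cell cycle promoters beside the values. The 4 members with the smallest adjusted p among those listed in the promoter table were taken, and the 250 bases before each start are shown, 5' to 3' on the gene's strand. Capitals mark a match on either strand to TTTGAA (the cell cycle homology region, CHR), CCAAT (the CCAAT box) or the E2F core in the forms TTTCGCGC, TTTGGCGC, TTCGCGC and TTGGCGC, of which the shorter forms lie within the longer and neighbouring matches can overlap. Mcm7 has 2 listed starts.
Mcm6 (chr1:128359706-128359955, minus strand): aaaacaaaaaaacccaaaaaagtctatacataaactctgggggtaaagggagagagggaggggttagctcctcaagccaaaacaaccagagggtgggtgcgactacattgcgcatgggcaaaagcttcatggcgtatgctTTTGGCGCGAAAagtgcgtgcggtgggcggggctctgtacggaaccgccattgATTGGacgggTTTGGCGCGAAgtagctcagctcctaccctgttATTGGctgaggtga
Mcm7 (chr5:138171884-138172133, minus strand): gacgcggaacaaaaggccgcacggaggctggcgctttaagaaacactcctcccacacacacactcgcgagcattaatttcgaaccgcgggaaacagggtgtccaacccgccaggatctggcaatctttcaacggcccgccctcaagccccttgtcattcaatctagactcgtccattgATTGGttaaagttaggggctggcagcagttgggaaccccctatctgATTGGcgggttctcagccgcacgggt
Mcm7 (chr5:138171267-138171516, minus strand): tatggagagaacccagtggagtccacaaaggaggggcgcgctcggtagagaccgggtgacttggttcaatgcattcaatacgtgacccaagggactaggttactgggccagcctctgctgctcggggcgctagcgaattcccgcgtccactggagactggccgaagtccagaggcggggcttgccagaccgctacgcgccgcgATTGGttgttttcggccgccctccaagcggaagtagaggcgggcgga
Mki67 (chr7:135716380-135716629, minus strand): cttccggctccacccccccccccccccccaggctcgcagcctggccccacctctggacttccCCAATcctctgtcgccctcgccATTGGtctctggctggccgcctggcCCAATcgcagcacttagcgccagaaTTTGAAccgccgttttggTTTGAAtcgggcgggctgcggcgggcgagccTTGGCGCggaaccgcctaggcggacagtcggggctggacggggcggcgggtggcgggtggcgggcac
Mcm5 (chr8:75109259-75109508, plus strand): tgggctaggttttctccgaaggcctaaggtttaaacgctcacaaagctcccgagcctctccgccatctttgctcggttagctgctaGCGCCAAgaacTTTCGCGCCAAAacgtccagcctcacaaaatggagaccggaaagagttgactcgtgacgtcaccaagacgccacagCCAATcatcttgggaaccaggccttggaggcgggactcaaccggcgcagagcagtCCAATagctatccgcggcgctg

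The Mcm6 and Mcm5 windows hold both long E2F forms and CCAAT. Both Mcm7 windows hold CCAAT with neither E2F form nor CHR, and the Mki67 window holds CHR, CCAAT and TTGGCGC. Over the 34 of 42 members in the table, CCAAT occurred in 22 (64.7%, against 33.8% of all 32851 promoters of this length) and TTTGAA in 7 (20.6% against 16%). The units differ, since a member counted if any of its listed promoters matched, whereas the share over all is of single promoters. Members with several starts thus had more chances of a match, which raises the member shares here and below. TTTCGCGC occurred in 4 members (11.8% against 0.256%), which are Cdk1, Rbl1, Mcm5 and Mcm6, and TTTGGCGC in 2 (5.88% against 0.417%), which are Mcm5 and Mcm6. TTCGCGC occurred in the same 4 members as TTTCGCGC (11.8% against 1.28%), and TTGGCGC in 5 (14.7% against 1.97%). The CHR and CCAAT letters also occur in the windows of Top2a, Ccnb2, Cdk1, Cdc45, Mcm2 and Cdc20, of which only Top2a passed in a comparison. A match describes these letters and is not a measured binding site.

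None of the 4 tested enzymes of nucleotide supply passed. Rrm1 encodes the large subunit of ribonucleotide reductase, and its brighter probe set had 449 and 261.5 in IKDC, 169.5 and 190.0 in cDC and 117 and 172 in PDC. Both IKDC samples were highest (1.18 ± 0.34 log2 units against PDC, limma adjusted p = 0.0844), while its probe set on U74C differed by -0.44 ± 0.66. Rrm2, encoding the small subunit, had 104 and 138 in IKDC, 110 and 126 in cDC and 62.8 and 59.8 in PDC, with PDC below all others (-0.79 ± 0.33 log2 units against cDC, limma adjusted p = 0.293). The thymidine kinase gene Tk1 had 4 tested probe sets, none past the test, and the thymidylate synthase gene Tyms reached at most 61.0 on its 1 unshared probe set.

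The mitotic kinases and checkpoint genes included 6 tested members, none past the test. Mad2l1, encoding the checkpoint protein MAD2, had signals of 266 and 278 in IKDC, 136 and 116 in cDC and 125 and 206 in PDC. IKDC was highest, by 1.03 ± 0.32 log2 units against cDC (limma adjusted p = 0.0975). The alternatives gave 0.83 to 1.21 log2 units, and the difference passed under only some of them. Bub1b, encoding the checkpoint protein BUBR1, had 116 and 177 in IKDC, 13.7 and 88.7 in cDC and 22.6 and 55.9 in PDC, where the 2 samples of cDC and of PDC were far apart and the SE was 0.67. Cdc20, an activator of the anaphase-promoting complex, had 284 and 265 in IKDC, 251 and 228 in cDC and 162 and 138 in PDC. Its populations did not overlap, with IKDC minus PDC at 0.81 ± 0.28 log2 units (limma adjusted p = 0.178). Aurkb, encoding the kinase aurora B, ran differently, with 94.4 and 192 in IKDC, 234 and 253 in cDC and 106 and 66.0 in PDC, so that cDC was highest (-1.37 ± 0.51 log2 units for PDC minus cDC, limma adjusted p = 0.226). Aurka, encoding aurora A, lay between 35.3 and 80.1 with PDC lowest, and the 2 tested probe sets of Plk1, encoding polo-like kinase 1, overlapped across the populations.

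Probe sets of 1 gene did not always give the same order. For 14 genes with several tested probe sets, IKDC minus PDC could be set side by side, and 10 of them had probe sets with opposite signs, Mki67, Ccnd1, Ccnd3, Ccne1, Cdkn1a, Mcm5, Mcm6, Rrm1, Tk1 and Plk1. In Mki67, Mcm5, Mcm6 and Ccnd1 1 probe set passed and the others did not. Of the 19 tested member probe sets on U74B and U74C, 14 had at least 1 signal under the highest unspiked bacterial control of their array type (122.7 and 148.7), against which their lower values cannot be read.

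**Figure D4:**
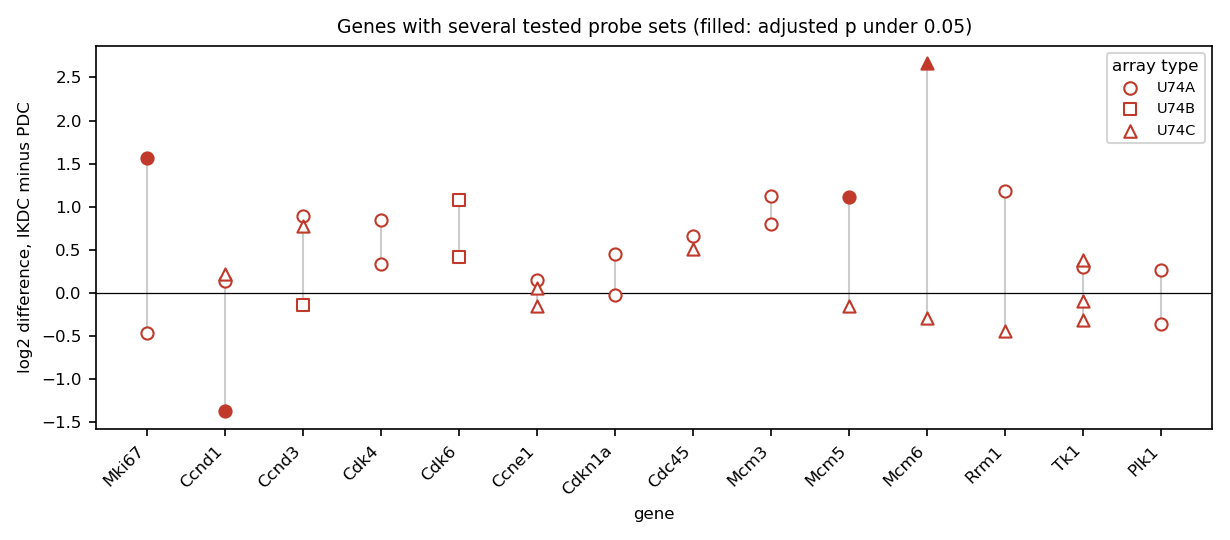
Log2 difference IKDC minus PDC (vertical axis, 2 samples each) for the 14 genes with several tested probe sets; each symbol is a probe set, its shape the array type, and filled symbols passed limma at an adjusted p of 0.05. The largest gap between probe sets is that of Mcm6, from -0.30 to 2.67 on U74C.

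The wider cell cycle was read from 148 further genes, kept in lists of G1 regulators, replication origin and fork proteins, nucleotide supply, mitosis, chromatin and cohesion, and checkpoint and repair. These lists, too, were chosen with earlier results of these data known. Between IKDC and cDC 11 of the 148 rose in IKDC and 2 fell, where 3.5% and 4.07% of all genes did. Between IKDC and PDC 6 rose and none fell (2.71% and 3.17% of all genes). At an unadjusted p of 0.05 by limma the counts were 39 and 3 (9.35% and 7.91% of all genes). Myc, among the 11 and among the 6, was tested through IKDC alone, so its direction was fixed by the filter. Some of the 39, such as Asf1b and Brca2, were likewise tested through IKDC alone. Between PDC and cDC 3 rose and 2 fell (2.25% and 2.75%). The median log2 difference was 0.32 for IKDC minus cDC, 0.39 for IKDC minus PDC and -0.10 for PDC minus cDC, beside 0.01, 0.01 and -0.00047 over all genes. IKDC had the highest mean in 88 of these genes (59.5%) and PDC the lowest in 70 (47.3%).

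G1 regulators held the largest differences among them. Cdkn2d, encoding the CDK4 and CDK6 inhibitor p19, had signals of 406 and 432.5 in IKDC, 26.6 and 72.1 in cDC and 615 and 655 in PDC. It was low in cDC alone, by 2.83 ± 0.35 log2 units against IKDC (limma adjusted p = 0.00063) and 3.41 against PDC (limma adjusted p = 0.00028), and both calls held under all 16 alternatives. Cdkn2d thus had the opposite order to Cdkn1a, which was brightest in cDC. Tfdp1, encoding the DP1 partner of E2F factors, had 428.5 and 493 in IKDC, 78.9 and 69.0 in cDC and 76.2 and 131 in PDC. IKDC exceeded cDC by 2.40 ± 0.33 log2 units (limma adjusted p = 0.00114) and PDC by 2.03 (limma adjusted p = 0.00371), the second of which ended without IKDC replicate 2 (0.0575). Myc, encoding a growth-promoting transcription factor, had 219 and 199 in IKDC, 51.8 and 39.3 in cDC and 49.2 and 24.1 in PDC, and it reached the signal minimum, and so was tested, through IKDC alone. Against the minimum, IKDC was at least 3.47-fold higher than PDC (limma adjusted p = 0.00805) and than cDC (limma adjusted p = 0.0154), the latter call ending without cDC replicate 1 (0.0671) or cDC replicate 2 (0.108). Tfdp2, encoding the DP2 partner, exceeded cDC by 2.23 ± 0.42 log2 units in IKDC (limma adjusted p = 0.0112), which was lost without IKDC replicate 2 (0.141) or cDC replicate 1 (0.0846). Btg2, encoding an antiproliferative protein, was named after its values were seen. It had 2866 and 2313 in IKDC, 5411 and 6469 in cDC and 2676 and 3301 in PDC, and IKDC minus cDC was -1.20 ± 0.27 log2 units (limma adjusted p = 0.0266), which was lost without IKDC replicate 1 (0.0851), IKDC replicate 2 (0.221), cDC replicate 1 (0.0679) or cDC replicate 2 (0.128).

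Chromatin genes of proliferating cells that passed were brightest in IKDC. H2az1, encoding the histone variant H2A.Z, had signals of 2461 and 2815 in IKDC, 922 and 1040 in cDC and 590 and 780 in PDC. The populations did not overlap. IKDC minus PDC was 1.93 ± 0.27 log2 units (limma adjusted p = 0.00141), which held under all 16 alternatives, and IKDC minus cDC was 1.41 (limma adjusted p = 0.00944), which ended without IKDC replicate 1 (0.0608), IKDC replicate 2 (0.114) or cDC replicate 1 (0.0776). Smc4, encoding a condensin subunit, had 1298 and 986 in IKDC, 407 and 531 in cDC and 271 and 443 in PDC. It exceeded PDC by 1.66 ± 0.31 log2 units in IKDC (limma adjusted p = 0.0104), ending without IKDC replicate 1 (0.129) or PDC replicate 1 (0.0648). It exceeded cDC by 1.25 (limma adjusted p = 0.0409), which ended without IKDC replicate 1 (0.295), IKDC replicate 2 (0.116), cDC replicate 1 (0.244) or cDC replicate 2 (0.0955). Hmgb2, encoding a chromatin protein of dividing cells, had 208 and 235 in IKDC, 89.4 and 184 in cDC and 48.9 and 56.1 in PDC, and against the minimum IKDC was at least 3.68-fold higher than PDC (limma adjusted p = 0.0164). It was lost without IKDC replicate 1 (0.0974), IKDC replicate 2 (0.153) or PDC replicate 1 (0.0594). Lbr, encoding the lamin B receptor, exceeded cDC by 1.30 ± 0.28 log2 units in IKDC (limma adjusted p = 0.0206), which ended without IKDC replicate 1 (0.141), IKDC replicate 2 (0.152), cDC replicate 1 (0.124) or cDC replicate 2 (0.0928).

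The mitosis genes that passed were Cdc25b, Kif23 and Anapc5. Cdc25b, encoding a phosphatase that activates CDK1, had signals of 440 and 652 in IKDC, 123 and 115 in cDC and 145 and 228.5 in PDC. IKDC minus cDC was 2.04 ± 0.34 log2 units (limma adjusted p = 0.00666), ending without IKDC replicate 2 (0.0879), cDC replicate 1 (0.0521) or cDC replicate 2 (0.0602). IKDC minus PDC was 1.48 (limma adjusted p = 0.0396), which was lost without any 1 of IKDC replicates 1 and 2 (0.0935 and 0.352), PDC replicate 1 (0.169) and cDC replicates 1 and 2 (0.0668 and 0.0682). Kif23, encoding a kinesin of cytokinesis, had 167 and 193 in IKDC, 224.5 and 303.5 in cDC and 89.6 and 35.1 in PDC. PDC was lowest, by -1.92 ± 0.38 log2 units against cDC (limma adjusted p = 0.0169), which ended without PDC replicate 2 (0.0649), cDC replicate 1 (0.0701) or cDC replicate 2 (0.146). Anapc5, encoding a subunit of the anaphase-promoting complex, was 1.21 ± 0.25 log2 units higher in PDC than in cDC (limma adjusted p = 0.0225), ending without PDC replicates 1 and 2 (0.056 and 0.0929), IKDC replicate 2 (0.05, just over the threshold) and cDC replicates 1 and 2 (0.124 and 0.101).

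Pold2, encoding a subunit of DNA polymerase delta, was higher than in cDC by 1.66 ± 0.30 log2 units in IKDC (limma adjusted p = 0.0068) and by 1.26 in PDC (limma adjusted p = 0.0423). The IKDC call ended without IKDC replicates 1 and 2 (0.0644 and 0.0701) or cDC replicate 2 (0.0615). The PDC call of Pold2 ended without IKDC replicates 1 and 2 (0.0854 and 0.0846), PDC replicate 2 (0.142) and cDC replicates 1 and 2 (0.123 and 0.228). Orc3, encoding an origin recognition subunit, was 1.81 ± 0.40 log2 units higher in IKDC than in cDC (limma adjusted p = 0.0287), ending without IKDC replicates 1 and 2 (0.0798 and 0.245) and cDC replicates 1 and 2 (0.169 and 0.0866). Between IKDC and PDC no origin and fork gene of 37 passed by limma, while 13 were higher and 0 lower at an unadjusted p of 0.05 (9.35% and 7.91% of all genes), and the brightest, Pole and Gins1, differed by 0.11 and 0.0016 log2 units. The probe sets of Pold2, Tfdp1 and Hmgb2 carry the _r suffix. On U74B and U74C, both cDC signals of Orc3 and Cdc25b and 1 of Tfdp2 lay under the highest bacterial control, and the sizes of those differences are not secure.

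In nucleotide supply, Cad, which starts pyrimidine synthesis, had signals of 120 and 185 in IKDC, 20.0 and 32.0 in cDC and 34.8 and 111 in PDC. Both cDC signals were under the minimum, against which IKDC was at least 2.48-fold higher (limma adjusted p = 0.0343), a difference ending without IKDC replicates 1 and 2 (0.123 and 0.325) and cDC replicates 1 and 2 (0.196 and 0.0998). Samhd1, which degrades deoxynucleotides, was lower in IKDC by -1.65 ± 0.33 log2 units (limma adjusted p = 0.0128), ending without IKDC replicate 2 (0.162) or cDC replicate 2 (0.113). Among checkpoint and repair genes, Gadd45g, a stress-induced growth arrest gene, had signals of 182 and 92.8 in IKDC, 339.5 and 461 in cDC and 144 and 69.2 in PDC. Both cDC samples of Gadd45g were the highest, and PDC minus cDC was -1.82 ± 0.40 log2 units (limma adjusted p = 0.0282), ending without PDC replicate 2 (0.14), cDC replicate 1 (0.101) or cDC replicate 2 (0.204). Where no gene of a list passed in a comparison, its brightest genes are given. In nucleotide supply these were Tk2, a mitochondrial thymidine kinase gene, and Samhd1, with 0.87 ± 0.48 and -0.65 ± 0.33 log2 units for IKDC minus PDC and -0.14 and -0.996 for PDC minus cDC. For chromatin genes in PDC minus cDC they were the cohesin subunit gene Smc1a (-0.46 ± 0.28) and H2az1 (-0.52 ± 0.27). For checkpoint and repair they were Gadd45b and the mismatch repair gene Msh6, with -0.46 ± 0.58 and -0.40 ± 0.35 for IKDC minus cDC and -0.02 and -0.07 for IKDC minus PDC.

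**Figure D5:**
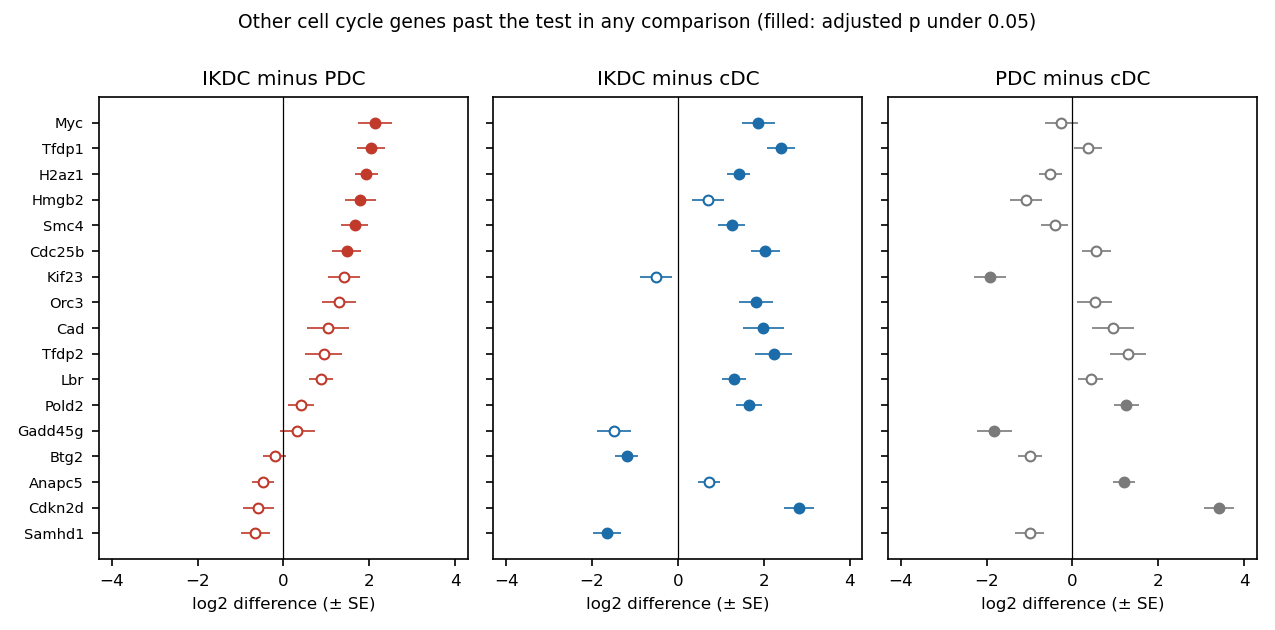
Log2 difference (horizontal axis, estimate ± SE, 2 samples each) for the 17 of 148 other cell cycle genes that passed limma in any comparison, ordered by IKDC minus PDC; filled points have an adjusted p under 0.05. The 6 filled points in the left panel all lie right of 0, though Myc among them was tested through IKDC alone. Cdkn2d is the point farthest right in the panel of PDC minus cDC, at 3.41.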

How the data were processed

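The authors deposited linear signal intensities from GCOS software, scaling every array globally to a target of 150 according to the labels. MAS5 is the tool listed by the submitters' processing notes. RNA was amplified in a pair of rounds, which shortens transcripts towards their 3' end. Median signal per array was 51.7 to 87.3. Precision is limited by the number of arrays.

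Intensities were used as log2(signal + 16). The 198 control probe sets and those under 60 on 5 or 6 arrays were left out. Each array type was fitted in limma 3.58.1 (R 4.3.3; lmFit, eBayes with trend, 3 populations in 1 model, 3 residual degrees of freedom), with Benjamini-Hochberg adjustment over the 23285 probe sets of all types and a threshold of 0.05; the fit was tested on simulated data. A gene is represented by its brightest tested probe set. "At least" folds compare the geometric mean of the brighter group, signals under 60 taken as 60, with 60.

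Members and lists were chosen with earlier results of these data known. Values per sample are given for member probe sets past the threshold, then for members with an unadjusted p under 0.05, the others by range; other genes are up to 4 per list and comparison with the smallest adjusted p, or the 2 brightest where none passed. Symbols came from the platform annotation, and 724 probe sets with several symbols, 2 of them naming Tyms with its pseudogene, named no gene.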

Additional observations from a re-analysis of the deposited data

How the results depend on the processing

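The 76 differences recomputed under alternatives, those of member probe sets at an unadjusted p under 0.05 and of the other named genes that passed, kept their direction. Of their 1188 values, 997 kept their side of the threshold, 124 lost a call and 67 gained one. Other probe sets of the same genes were not recomputed. Between IKDC and cDC, the 1 member call stood beside 1305 calls of all 23285 probe sets. It became 7 when the pseudocount was 64 (1415 of all) and 4 when the filter was 200 (1216 of 10750). It became 2 after quantile normalization (1198 of all), 3 after median centring (1161) and 2 without the trend (1001). With adjustment within each array type it became 6 (1453), and with only the 2 populations 8 (1668). Leaving out 1 sample also changed it. Between PDC and cDC, 1 became 2, 3 and 3 with the pseudocount of 64, the filter at 200 and adjustment within each array type, and 0 to 2 without 1 sample. Between IKDC and PDC, 7 member calls stood beside 1036 of all 23285. They became 3 after quantile normalization (939 of all), 4 after median centring (833) and 4 without the trend (734). Within each array type they became 11 (1096), and with only the 2 populations 4 (890). Leaving out 1 sample lowered them. For the other cell cycle genes, 13 calls between IKDC and cDC became 8 without the trend, and 2 to 18 without 1 sample, and 5 calls between PDC and cDC became 3 after median centring, 2 without the trend and 1 to 5 without 1 sample. Without 1 sample the 6 calls between IKDC and PDC became 2 to 10. Fewer samples leave less residual information, and otherwise the cause was not tested. Median centring moved the median log2 difference of all probe sets between IKDC and cDC from -0.01 to 0.11. With probe sets that have a design suffix left out, an alternative chosen after seeing the data, the member calls were 1, 1 and 6.

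The replicate numbers were not shown to pair the samples, since deviations of same-numbered samples correlated at -0.0862 to 0.235. With the replicate block, member calls were 6 (IKDC against cDC), 4 (PDC against cDC) and 8 (IKDC against PDC), and those of the other genes 18, 7 and 12. Over all 23285 probe sets the calls with the block were 1650, 1055 and 1223. Signals under 45.2 (U74A), 122.7 (U74B) and 148.7 (U74C), the highest unspiked bacterial controls, limit what dim probe sets can show.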
